A study of Mus musculus with 4 samples.

Results

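The 9 homing and retention receptor genes of gut lymphocytes were followed through 4 RNA-seq libraries of group 3 innate lymphoid cells (ILC3s), which are lymphocytes without antigen receptors that produce IL-22 and IL-17. They are Cxcr6, Cxcr4, Ccr7, Ccr8, Ccr9, S1pr1, S1pr4, Gpr183 and Cd69. All 9 were among the 15242 rows of the table of IL-17D-deficient (Il17d-KO) and wild-type cells, and 8 of them were among the 12546 rows of the CD93 table. Ccr8 was not analysed in the CD93 table. The KO and WT ILC3s came from the small intestine of mice at steady state and differ in the Il17d genotype. The CD93-positive and CD93-negative ILC3s were sorted from wild-type mice by CD93, a surface glycoprotein. All 4 libraries share an ILC3 gate whose terms include live cells with low CD45, no CD3 and high CD90.2. The labels attach a 12 h culture without stimulation to every library, while its wording concerns the CD93 sort. Whether the KO and WT cells were cultured too is not stated in the labels, nor are the age, strain and number of the mice or how the knockout was made. There was 1 library per group, so no difference has a replicate check and no test was run.

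Lymphocytes enter the gut, settle in it or leave it according to the guidance receptors on their surface. Most of these are G protein-coupled receptors. CCR9 binds CCL25, a chemokine of the small intestinal epithelium, and CXCR6 binds CXCL16. CCR7 reads CCL19 and CCL21 on the way to lymph nodes, CXCR4 binds CXCL12 and CCR8 binds CCL1 and, in mice, CCL8. S1PR1 draws lymphocytes out of tissue along gradients of sphingosine 1-phosphate (S1P), and S1PR4 binds the same lipid. GPR183, also called EBI2, follows oxysterols and positions ILC3s in lymphoid structures of the gut. CD69 is a C-type lectin that binds S1PR1 and takes it from the cell surface, and is widely used as a mark of tissue residence.

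The genes lie on 7 chromosomes, and 3 of them, Ccr8, Ccr9 and Cxcr6, are on chromosome 9 (mm10, GENCODE M21). Ccr9 (ENSMUSG00000029530.16; chr9:123678439-123784330, plus strand) and Cxcr6 (ENSMUSG00000048521.8; chr9:123806475-123811760, plus strand) are neighbours, while Ccr8 (ENSMUSG00000042262.5; chr9:120092114-120094906, plus strand) lies apart from them. S1pr4 is ENSMUSG00000044199.6 (chr10:81497747-81500132, minus strand, 1 exon). The remaining genes are Cxcr4 (ENSMUSG00000045382.6; chr1:128588199-128592293), Ccr7 (ENSMUSG00000037944.8; chr11:99144196-99155077), S1pr1 (ENSMUSG00000045092.8; chr3:115710433-115715072), Gpr183 (ENSMUSG00000051212.8; chr14:121952551-121965195) and Cd69 (ENSMUSG00000030156.5; chr6:129267325-129275436), all on the minus strand. The promoters of 6 of the 9 genes are in RefSeq's GRCm38.p6 set. Shown here are those of the 3 genes that were at least 2-fold apart in a pair, Ccr9, Ccr8 and S1pr4. That of Cxcr6, which had the highest per-length level of the 9 and is the neighbour of Ccr9, is shown too. Each covers 250 bases before and 50 bases after the transcription start. Capitals mark CACCC or its complement GGGTG, the core bound by KLF factors, and TGTGGT or ACCACA, a RUNX site.

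Ccr9, chr9:123766961-123767260, plus strand: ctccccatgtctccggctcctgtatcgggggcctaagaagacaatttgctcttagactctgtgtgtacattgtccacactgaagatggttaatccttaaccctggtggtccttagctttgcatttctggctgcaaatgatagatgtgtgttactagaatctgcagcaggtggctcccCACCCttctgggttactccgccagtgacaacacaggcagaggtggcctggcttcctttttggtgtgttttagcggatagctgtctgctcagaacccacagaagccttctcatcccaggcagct

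Ccr8, chr9:120091883-120092182, plus strand: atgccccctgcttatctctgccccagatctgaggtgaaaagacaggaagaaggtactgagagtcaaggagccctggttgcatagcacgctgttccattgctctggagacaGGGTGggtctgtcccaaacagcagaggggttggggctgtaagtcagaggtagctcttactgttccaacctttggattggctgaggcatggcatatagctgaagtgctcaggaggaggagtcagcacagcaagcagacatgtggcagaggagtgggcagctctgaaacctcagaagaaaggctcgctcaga

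S1pr4, chr10:81500088-81500387, minus strand: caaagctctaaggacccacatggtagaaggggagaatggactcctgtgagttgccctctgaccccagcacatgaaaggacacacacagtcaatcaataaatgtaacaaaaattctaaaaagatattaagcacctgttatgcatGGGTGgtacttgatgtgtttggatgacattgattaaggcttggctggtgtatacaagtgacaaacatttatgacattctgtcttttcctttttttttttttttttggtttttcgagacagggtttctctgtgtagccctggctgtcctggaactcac

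Cxcr6, chr9:123806227-123806526, plus strand: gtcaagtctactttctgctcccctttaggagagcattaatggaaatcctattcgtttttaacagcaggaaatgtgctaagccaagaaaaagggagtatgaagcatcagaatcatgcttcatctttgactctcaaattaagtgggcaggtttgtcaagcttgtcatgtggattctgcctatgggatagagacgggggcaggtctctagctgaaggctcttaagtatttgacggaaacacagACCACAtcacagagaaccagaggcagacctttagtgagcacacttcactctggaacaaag

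CACCC was found once in each of the Ccr9, Ccr8 and S1pr4 windows, at positions -73 to -69 from the start in Ccr9, and in 57.5% of all 32851 windows of this set. TGTGGT was found on the minus strand in the Cxcr6 window, at positions -10 to -5, and in 16.8% of all windows. AGGTCA, a nuclear receptor half-site, was searched on both strands, was in none of these 4 windows and was in 16.3% of all. The motifs do not overlap. The RefSeq start of Ccr9 lies 88772 bases inside the start that GENCODE gives this gene. The union exon length of Ccr9 is 10260 bases, against 2620 to 5197 bases for its protein-coding transcripts and 4811 for a retained-intron transcript. The per-length level of Ccr9 below is on the longer length, and its ratio between libraries does not depend on it. A log2 difference with a value added to both levels, as used below, does depend on the length.

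Values are FPKM (fragments per kilobase of gene scaled to a library total) as deposited by the authors. Reads were recovered from them and summed to 20855709 (KO), 21611125 (WT), 11406363 (CD93-positive) and 10740639 (CD93-negative). Differences are log2 of FPKM + 1 within a pair, which understates those of low genes. A gene with an FPKM of 1 or more in a library of the pair was called measured, and higher or lower at a 2-fold limit; a fold given for a gene under that limit is a value and not a call. Folds of single genes are FPKM ratios with 95% exact (Clopper-Pearson) counting intervals in parentheses, and levels carry exact Poisson intervals. These cover the counting error of reads only, and no spread between animals. Sequenced copies of a PCR product are not separate molecules, so the intervals may be too narrow even for counts of molecules. In RNA from sorted cells in bulk, fewer cells that express a gene and less RNA per cell cannot be told apart. Il17d itself was not analysed here, and the genotype rests on the labels. Cd93 had an FPKM of 155 in CD93-positive against 79.9 in CD93-negative cells, the direction of the sort, with a log2 difference of 0.95, under the 2-fold limit. The actin gene Actb differed by a similar amount in the same direction (1369 in CD93-positive against 692 in CD93-negative cells, 0.98). The Cd93 values are therefore no check of the sort. All 16 ILC3 identity genes were above 0 in every library.

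The levels of the 9 genes differed widely within a library. Cxcr6 was the highest of them in all 4 libraries, with an FPKM of 1035 in KO (1026 to 1044) against 986 in WT (977 to 994) in the first table, and of 380 in CD93-positive (372 to 388) against 430 in CD93-negative cells (421 to 438) in the second. It stood above 99.5% of all tabulated genes in each library. Cd69 came next in the KO and WT pair and Gpr183 after it, while in the CD93 pair Gpr183 stood above Cd69. This order rests on union exon lengths. That of Cd69 is 6509 bases and takes in a retained-intron transcript of 4968 bases, while its longest protein-coding transcript has 1687. Cd69 had more reads than Cxcr6 in KO (66926 against 53971) and in WT (54502 against 49650). The places of Cd69 and Ccr9, and that of Cxcr6 as the highest, therefore depend on the length used. Cxcr4 and Ccr7 were at middle levels in every library. S1pr1 was lowest of the 9 in KO, and in WT S1pr1, with 2 reads, and S1pr4, with 0, could not be ordered. The other neighbours in the order that were not apart in their intervals were Cxcr4 and Ccr7 in CD93-positive ILC3s, at 19.6 (17.8 to 21.6) and 19.2 (17.4 to 21), and Cd69 and Cxcr4 in CD93-negative ILC3s, at 36.2 (34.8 to 37.5) and 33.5 (31.1 to 36.1).

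**Figure D1:**
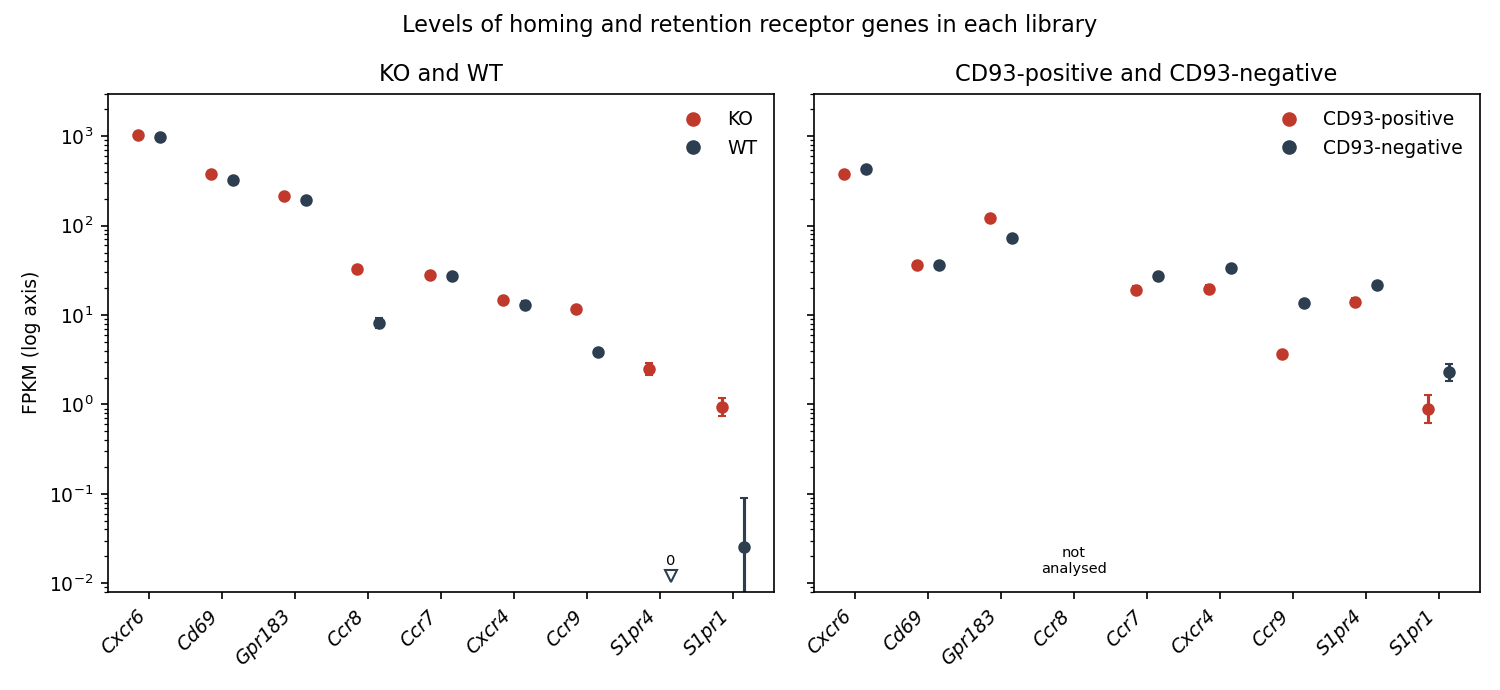
FPKM (log axis) of the 9 genes in the 4 libraries, with exact 95% Poisson intervals; the open triangle marks S1pr4, which had 0 reads in WT. On union exon lengths, Cxcr6 has the highest FPKM in every library. Ccr8, Ccr9, S1pr4 and S1pr1 are the genes whose KO and WT points lie apart.

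The first comparison asks how ILC3s without IL-17D differ from wild-type ILC3s. Ccr8, Ccr9 and S1pr4 were higher in the KO library, and the abundant receptors Cxcr6, Cd69 and Gpr183 were within 1.19-fold of WT. Past the limit were 3 of the 8 measured genes, all higher in KO, and 0 were lower, against 16.6% of all 12376 measured genes that were higher and 12.7% that were lower, 29.3% in all. Of the 3, S1pr4 was measured through KO alone (FPKM of 2.50 in KO, 0 in WT), so once measured it could only be higher there. S1pr1 was under an FPKM of 1 in both libraries and not measured. The median difference of the 8 was 0.20, and that of all measured genes was 0.01. S1pr4 lies above that median with 0 or with 3 reads in WT. Each of the 9 had a higher FPKM in KO than in WT by some amount, as had 50.5% of all measured genes, while 49.5% were lower. Called genes were common among those with few reads in this pair, so each result is set below beside the share of genes in its own class of reads.

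Ccr8, a receptor of type 2 lymphocytes and tissue regulatory T cells, had an FPKM of 32.5 in KO against 8.16 in WT, from 1032 reads in KO against 250 in WT. That is 3.99-fold higher in KO (3.47 to 4.6), with a log2 difference of 1.87. It stood above Ccr7 and Cxcr4 in KO and below both in WT. Of 3576 measured genes with 1000 to 10000 reads over the pair, 8.78% passed the limit upwards and 4.73% downwards.

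Ccr9, the receptor of small intestinal homing, had 3213 reads in KO against 1036 in WT, the same class of reads as Ccr8. Its FPKM was 11.6 in KO against 3.87 in WT, 3.0-fold higher in KO (2.79 to 3.22), with a log2 difference of 1.37. With a pseudocount of 5 the difference was 0.90, under the limit, and the call was also lost with a 3-fold limit. The values with a pseudocount depend on the union exon length of Ccr9. On a shorter length both levels, and with them these differences, would be larger. Exons of Ccr9 share 18.8% of their bases with AC165425.1 on the other strand and 2.62% with Gm17200 on the same strand. Whether reads were counted by strand is not stated in the labels, so reads of these overlapping genes cannot be told apart.

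The remaining chemokine receptors were close to WT. Cxcr6 was 1.05-fold higher in KO (1.04 to 1.06), from 53971 reads in KO against 49650 in WT. Cxcr4 had an FPKM of 14.8 in KO against 13.1 in WT, a ratio of 1.13 (1.01 to 1.26). Ccr7 had 28.3 in KO against 27.4 in WT, and its interval included a ratio of 1 (0.96 to 1.11). Scaling both libraries to the same summed FPKM moved the median of all measured genes to 0.17, more than the as-deposited differences of Cxcr6 (0.07), Ccr7 (0.04) and Cxcr4 (0.16).

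The S1P receptors had few reads in this pair. S1pr4 had 161 reads in KO against 0 in WT, an FPKM of 2.50 in KO. Set against 3 reads in WT, which is an FPKM of 0.0482, it was at least 51.8-fold higher in KO. Of 3668 measured genes with 100 to 1000 reads over the pair, 22.5% were called higher in KO, and 11.9% had 0 reads in one of the libraries. Its log2 difference was 1.81, and 0.59 with a pseudocount of 5, under the limit. S1pr1, the egress receptor, had 77 reads in KO against 2 in WT, an FPKM of 0.936 in KO against 0.0252 in WT. This is a ratio of 37.2 with an interval of 9.95 to 313, and a log2 difference of 0.92. With the libraries scaled to recovered reads it was measured, and its difference of 1.10 passed the limit. S1pr1 falls in the class of 10 to 100 reads over the pair. Of the 486 measured genes in that class, 42.2% were called higher in KO and 74.1% were called in either direction.

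Gpr183 and Cd69 rest on far more reads. Gpr183 had an FPKM of 215 in KO against 195 in WT, 1.11-fold higher (1.08 to 1.13), from 16784 reads in KO against 14651 in WT. Cd69 had 381 in KO against 321 in WT, 1.19-fold higher (1.17 to 1.20), from 66926 reads in KO against 54502 in WT. Both intervals lie above 1, and both differences are under the 2-fold limit, at 0.15 and 0.25 in log2. That of Gpr183 is also smaller than the median of 0.17 that all measured genes had with a common summed FPKM, while that of Cd69 is larger. Of 592 measured genes with 10000 or more reads over the pair, 4.39% were past the limit.

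**Figure D2:**
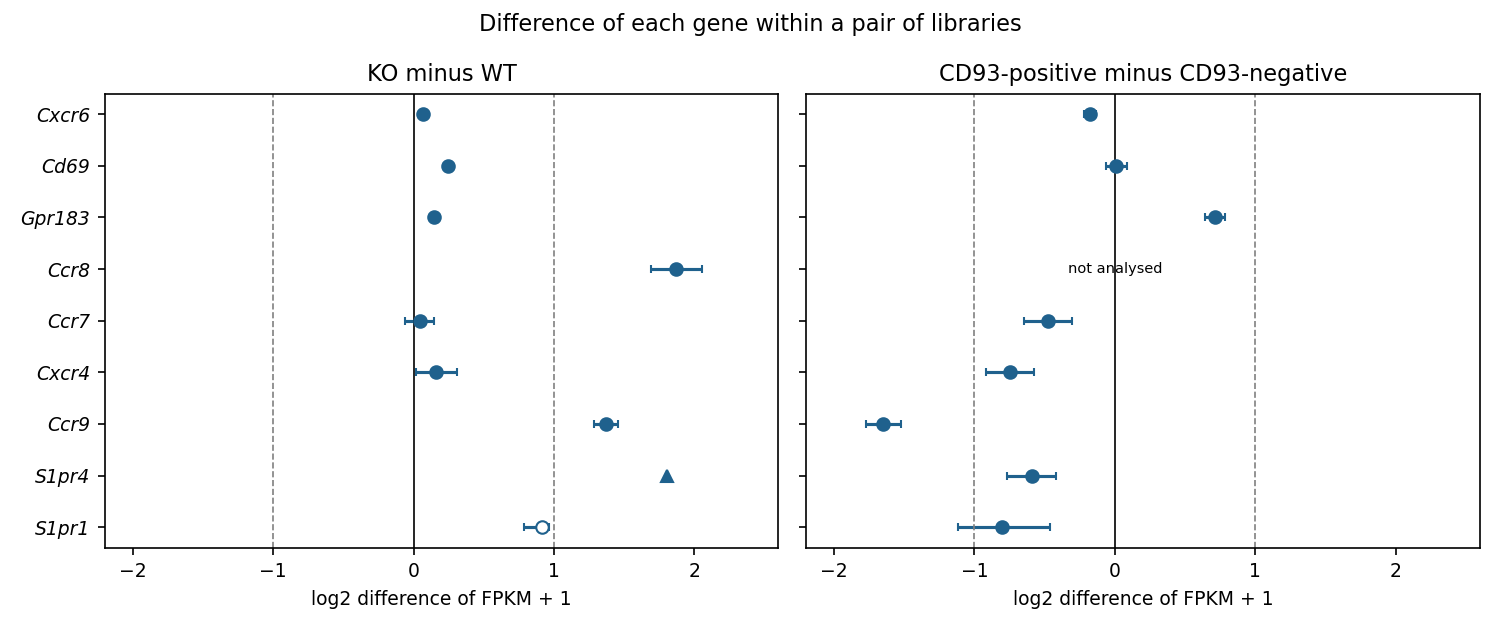
Log2 difference of FPKM + 1 for each gene, KO minus WT (left) and CD93-positive minus CD93-negative (right), with 95% counting intervals; dashed lines mark the 2-fold limit, the open circle a gene under the FPKM minimum and the triangle a gene with 0 reads in WT, drawn without an interval. Ccr8, S1pr4 and Ccr9 lie above the limit on the left, and Ccr9 alone lies below it on the right.

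Lists of T cells, B and plasma cells, ILC1 and NK cells, myeloid cells, epithelium and exocrine pancreas had positive median differences in this pair. Those of ILC2 (-0.06) and of endothelium and stroma (-0.51) had negative ones. The part of these genes in the results for Ccr8, Ccr9 and the S1P receptors was not tested. Among all measured genes, 16.6% were at least 2-fold higher in KO and 12.7% lower. Among 14 measured T cell genes, 7 passed the limit upwards in KO, 0 passed it downwards, and their summed FPKM was 1476 in KO against 988 in WT. None of the 14 was at 0. Cd3e had an FPKM of 3.14 in KO against 0.780 in WT. Of 7 measured ILC2 genes, 2 were higher in KO, Il17rb and Rnf128, and Areg was lower, with a summed FPKM of 198 in KO against 209 in WT and Il9r at 0 in WT. Of 11 measured ILC1 and NK cell genes, 4 were higher and 0 lower, with 1261 in KO against 866 in WT and none at 0. Among 7 measured genes of B and plasma cells 4 were higher, with 0 lower, with sums of 4669 in KO against 2836 in WT and with genes at 0 in WT that include Mzb1. Of 5 measured myeloid genes (macrophages, monocytes, dendritic cells), 3 were higher and 1 lower, with 66.0 in KO against 20.1 in WT and none at 0. Of 9 measured epithelial genes 8 were higher and 0 lower (1075 in KO against 293 in WT), with Cdh1 at 0 in KO and Olfm4 and Reg3b at 0 in WT. All 10 genes of the exocrine pancreas were higher, with a summed FPKM of 1442 in KO against 0.317 in WT and 7 of them at 0 in WT. Of 4 measured endothelial and stromal genes 1 was higher and 2 lower (20.5 in KO against 17.8 in WT), with Lum at 0 in KO and Plvap at 0 in WT.

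The second comparison asks how ILC3s that carry CD93 differ from those that do not. Ccr9 was lower in CD93-positive ILC3s, and Cxcr4, S1pr4, S1pr1 and Ccr7 had lower values too, each under the 2-fold limit. Gpr183 had the opposite direction, also under the limit. All 8 genes were measured, and 1 of them was at least 2-fold lower and 0 higher, against 1.94% of 10117 measured genes that were lower and 2.49% that were higher, 4.43% in all. As deposited, 252 genes were higher and 196 lower, while with a common summed FPKM 173 were higher and 296 lower. The median difference of the 8 genes was -0.53 and that of all measured genes 0.04. Lower by some amount in CD93-positive cells were 6 of the 8, as were 45.6% of all measured genes, while 54.4% were higher. Among the 6, S1pr1 was measured through CD93-negative cells alone (FPKM of 0.897 in CD93-positive against 2.31 in CD93-negative cells). Once measured it could only be lower in CD93-positive cells.

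Ccr9 had an FPKM of 3.64 in CD93-positive ILC3s (3.30 to 3.99) against 13.5 in CD93-negative cells (12.9 to 14.2), from 437 reads in CD93-positive against 1638 in CD93-negative cells. It was 3.72-fold lower in CD93-positive cells (3.35 to 4.15), with a log2 difference of -1.65, and 32 of the 10117 measured genes had a lower difference. Of 4468 measured genes with 1000 to 10000 reads over this pair, 1.37% were at least 2-fold lower. The call held in all 8 alternatives, a 3-fold limit included, in which the difference ran between -1.87 and -1.10.

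Cxcr4 had an FPKM of 19.6 in CD93-positive against 33.5 in CD93-negative cells, 1.71-fold lower (1.51 to 1.94), from 415 reads in CD93-positive against 715 in CD93-negative cells. Ccr7, which LTi-like ILC3s are known to use, had 19.2 in CD93-positive against 27.0 in CD93-negative cells, 1.41-fold lower (1.25 to 1.60). Cxcr6 was 1.13-fold lower (1.10 to 1.16), the smallest of these differences, at -0.18 in log2. None of the alternatives run could reverse the negative sign of these 3, so they are no check of it.

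S1pr4 had an FPKM of 14.1 in CD93-positive against 21.8 in CD93-negative cells, 1.54-fold lower (1.36 to 1.75), from 395 reads in CD93-positive against 613 in CD93-negative cells. S1pr1 had 32 reads in CD93-positive against 83 in CD93-negative cells, and an FPKM of 0.897 in CD93-positive against 2.31 in CD93-negative cells. The FPKM of S1pr1 was thus 2.58-fold lower in CD93-positive cells (1.69 to 4.0), while its log2 difference with a pseudocount of 1 was -0.80. With a pseudocount of 0.1 it was -1.27, past the limit. The oxysterol receptor Gpr183 was 1.65-fold higher in CD93-positive cells (1.57 to 1.73), at an FPKM of 121 in CD93-positive against 73.1 in CD93-negative cells. Of all measured genes, 525 had a higher difference than its 0.71. Cd69 had 36.4 in CD93-positive against 36.2 in CD93-negative cells, a ratio of 1.01 (0.96 to 1.06), and its difference ran between -0.16 and 0.01 over the alternatives.

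**Figure D3:**
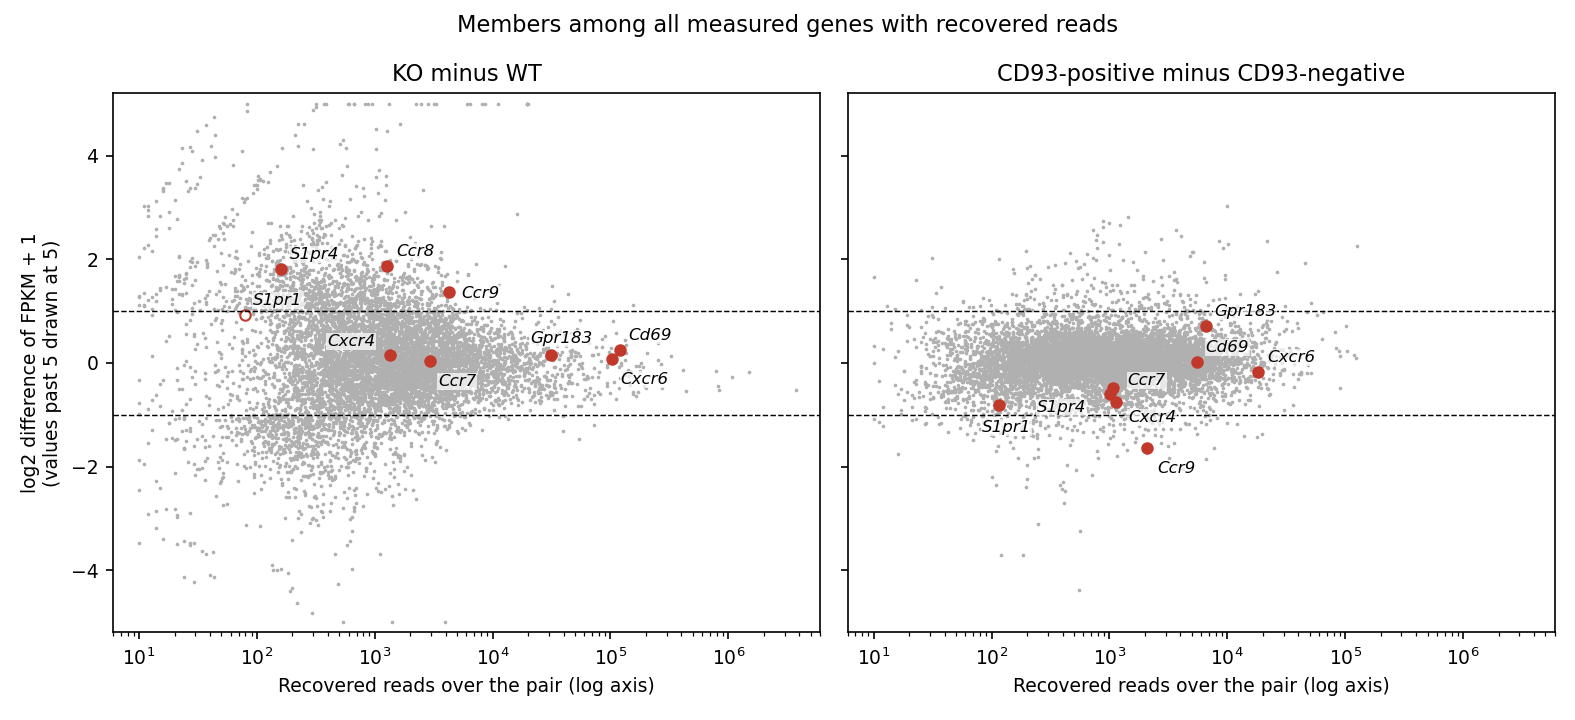
Log2 difference of FPKM + 1 against recovered reads over the pair (log axis) for all measured genes with recovered reads (grey) and the receptor genes (red; the open circle is S1pr1, not measured). In the KO and WT pair the spread widens at few reads, where S1pr4 lies, and in the CD93 pair Ccr9 lies at the lower edge of the cloud, at -1.65.

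In the CD93 pair the lists of other lymphocytes had negative median differences, the direction of Ccr9, and their part was not tested. Among all measured genes, 1.94% were at least 2-fold lower in CD93-positive cells and 2.49% higher. Of 5 measured T cell genes 4 were past the limit and lower in CD93-positive ILC3s, with a summed FPKM of 25.8 in CD93-positive against 64.8 in CD93-negative cells over the 8 tabulated genes. Themis and Trat1 were at 0 in CD93-positive ILC3s, and Cd3e had an FPKM of 1.07 in CD93-positive against 3.03 in CD93-negative cells. Of 10 measured ILC1 and NK cell genes 5 were lower and 0 higher, with sums of 468 in CD93-positive against 912 in CD93-negative cells and none at 0. Of 8 measured ILC2 genes, 2 were lower (24.9 in CD93-positive against 37.1 in CD93-negative cells). Of 6 measured epithelial genes, Epcam was lower (sums of 26.6 in CD93-positive against 47.2 in CD93-negative cells). The 9 measured genes of the exocrine pancreas summed to 363 in CD93-positive against 567 in CD93-negative cells, with none past the limit. Of 7 measured myeloid genes, Fcgr1 was higher (37.8 in CD93-positive against 27.8 in CD93-negative cells), and of 4 measured endothelial and stromal genes Lum was higher (87.8 in CD93-positive against 66.9 in CD93-negative cells). Of the B and plasma cell genes 1 was measured, and it was under the limit, with sums of 2.86 in CD93-positive against 5.94 in CD93-negative cells.

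The pairs share no library, and their values for Ccr9, S1pr4 and S1pr1 stand as follows. Ccr9 was 3.0-fold higher in KO than in WT and 3.72-fold lower in CD93-positive than in CD93-negative ILC3s. S1pr4 was at least 51.8-fold higher in KO than in WT and 1.54-fold lower in CD93-positive ILC3s. S1pr1, not measured in the KO and WT pair and with 2 reads in WT, had a ratio of 37.2 there (9.95 to 313) and was 2.58-fold lower in CD93-positive ILC3s (1.69 to 4.0), under the limit. Cd93 itself was 2.12-fold lower in KO than in WT (2.04 to 2.20) and 1.94-fold higher in CD93-positive cells (1.88 to 2.00). All 9 receptor genes had a higher FPKM in KO, so each one that was lower in CD93-positive cells has opposite directions in the pairs. Cxcr6, Cxcr4 and Ccr7 did so too, under the limit in both pairs. Gpr183 did not, with log2 differences of 0.15 (KO minus WT) and 0.71 (CD93-positive minus CD93-negative), nor did Cd69, with 0.25 and 0.01. Whether these patterns are linked was not tested.

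The genes around Ccr9 and Cxcr6 were examined because these receptors are neighbours; this set was chosen after the members' values were known. Within 100 kb of Ccr9, 7 other genes were tabulated in each pair. Slc6a20a, a proline transporter gene that starts 0.4 kb from the GENCODE start of Ccr9 on the other strand, had an FPKM of 13.0 in KO against 7.98 in WT, and of 3.07 in CD93-positive against 13.4 in CD93-negative cells. Its log2 difference was 0.64 in the KO and WT pair, under the limit, and -1.83 in the CD93 pair, the same signs as those of Ccr9. Xcr1, at -1.43 and past the limit, and Sacm1l, at -0.77, had the opposite sign to Ccr9 in the KO and WT pair. The exons of Slc6a20a and Ccr9 overlap by 22 bases. Lztfl1, a ciliary trafficking gene whose body overlaps that of Ccr9 with no shared exon bases, had differences of -0.20 in the KO and WT pair and -0.94 in the CD93 pair. Fyco1, an autophagosome transport gene that holds Cxcr6 within its body on the other strand, had an FPKM of 2.42 in KO against 2.15 in WT, where Cxcr6 had 1035 in KO against 986 in WT, and none of its exon bases overlap those of Cxcr6. Ubac2, which holds Gpr183 in its body in the same way, had 28.1 in KO against 17.7 in WT, and 11.5 in CD93-positive against 19.5 in CD93-negative cells. In the CD93 pair it thus had the opposite direction to Gpr183.

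**Figure D4:**
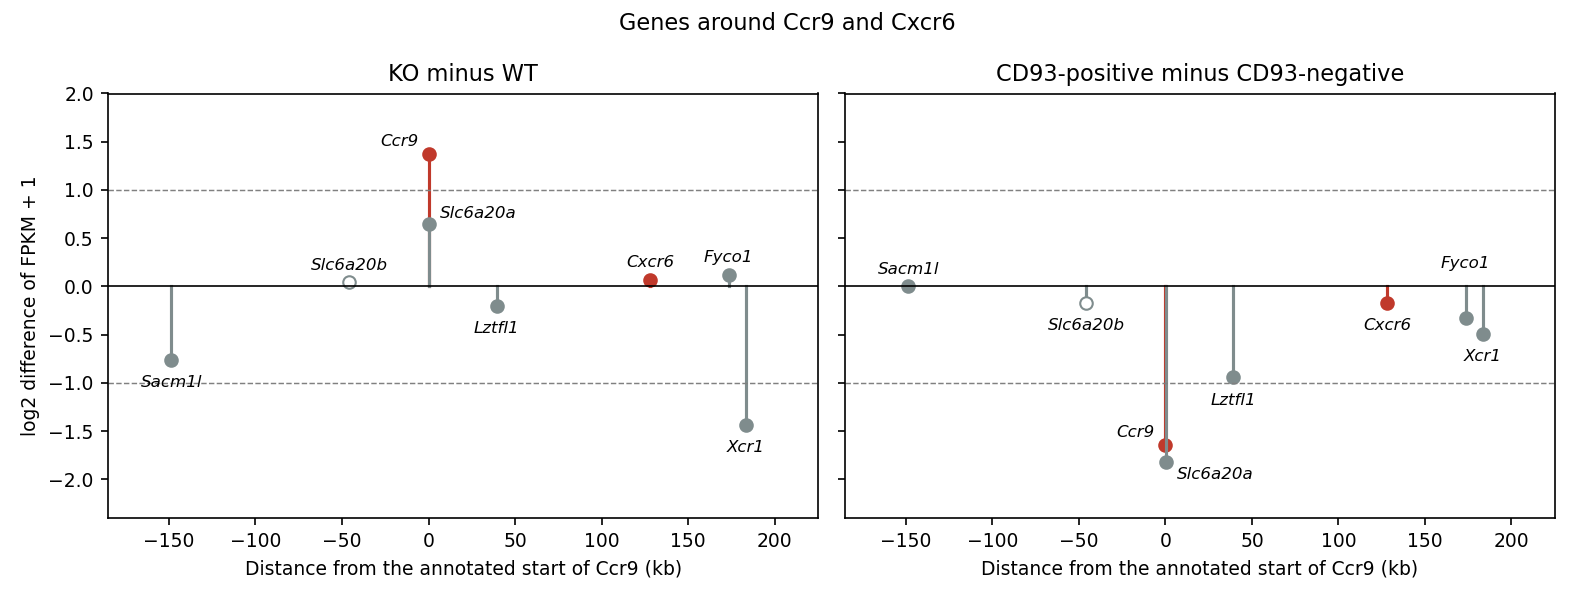
Log2 difference of FPKM + 1 of the tabulated genes around Ccr9, placed by the distance of their starts from that of Ccr9 (kb, in the direction of Ccr9), with the receptor genes in red, an open circle for a gene under the FPKM minimum and dashed lines at the 2-fold limit. Ccr9 and Slc6a20a lie on the same side in both pairs, at 1.37 and 0.64 on the left and at -1.65 and -1.83 on the right, while Cxcr6 lies near 0.

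Related genes were grouped in 7 lists, 6 of which are given here. Their counts can be read beside the 29.3% of all measured genes past the limit in the KO and WT pair and the 4.43% in the CD93 pair, and their median differences beside those of all measured genes, 0.01 in the KO and WT pair and 0.04 in the CD93 pair. Of 8 measured other chemokine receptors, 1 was at least 2-fold lower in KO, Xcr1 (1 read in KO against 200 in WT), and 0 were higher, with a median difference of 0.02. Between CD93-positive and CD93-negative ILC3s 4 of 10 were higher and 1 lower, with a median of 0.30. Ccr6, the receptor of CCL20 that marks LTi-like ILC3s, was 8.30-fold higher in CD93-positive ILC3s (6.70 to 10.4). Cxcr5 was 3.72-fold higher (3.04 to 4.57), at an FPKM of 11.7 in CD93-positive against 3.16 in CD93-negative cells. Ccr1, a receptor of inflammatory CC chemokines, was 2.71-fold higher, with 30.8 in CD93-positive against 11.4 in CD93-negative cells. Ackr3, an atypical receptor that takes up the CXCR4 ligand CXCL12, was 2.11-fold higher (1.96 to 2.27), while Cxcr4 had the opposite direction. Cxcr3, a receptor of type 1 lymphocytes, was lower, with 21.8 in CD93-positive against 60.9 in CD93-negative cells.

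Some other lipid and orphan receptors were apart in each pair. In the KO and WT pair 3 of 12 measured genes were higher and 4 lower, with a median of -0.05, against 16.6% higher and 12.7% lower among all measured genes. In the class of 100 to 1000 reads, where several of these genes lie, 40.8% were called. Ltb4r1, the leukotriene B4 receptor gene, was 3.89-fold higher in KO (3.54 to 4.29), with an FPKM of 57.0 in KO against 14.6 in WT from 2144 reads in KO against 532 in WT. Gpr55, a lysolipid receptor gene, had 5.09 in KO against 0.433 in WT. Gpr174 had 247 reads in KO against 0 in WT, and S1pr3 had 0 in KO against 215 in WT. Gpr15, which guides T cells to the large intestine, was listed at 0 in KO, with an FPKM of 4.78 in WT. Lpar6, a lysophosphatidic acid receptor gene, and the prostaglandin receptor gene Ptger4 were lower (1.60 in KO against 13.2 in WT for Lpar6, 0.602 in KO against 3.43 in WT for Ptger4). Between CD93-positive and CD93-negative ILC3s 3 of 12 were lower and 0 higher, with a median of -0.19. These were Gpr55 (5.39 in CD93-positive against 21.1 in CD93-negative cells), the lysophosphatidylserine receptor gene P2ry10 (53.0 in CD93-positive against 118 in CD93-negative cells) and Gpr34, another receptor gene of this lipid (4.49 in CD93-positive against 10.3 in CD93-negative cells).

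Genes that make, degrade or move S1P had few reads in the KO and WT pair. Of 5 measured, 1 was higher and 3 lower, with a median of -1.16. The phosphatase gene Sgpp1 had 89 reads in KO against 600 in WT, the S1P kinase gene Sphk2 had 67 in KO against 279 in WT, and the S1P exporter gene Spns2 had 0 in KO against 215 in WT. Plpp3 was higher, with 180 reads in KO against 13 in WT. These 4 genes are in the class of 100 to 1000 reads, of which 40.8% were at least 2-fold apart. In the CD93 pair the tabulated genes of this list also included the oxysterol gene Ch25h. There 0 of 6 measured genes were past the limit, and the median was 0.01.

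The integrin genes include those of gut homing. Integrin alpha 4 beta 7 binds MAdCAM-1 on gut vessels, and CD103, the product of Itgae, binds E-cadherin of the epithelium. Itgb7 had an FPKM of 46.8 in KO against 50.6 in WT, and of 174 in CD93-positive against 120 in CD93-negative cells, 1.45-fold higher in CD93-positive cells (1.39 to 1.51). Itga4 had 0.999 in KO against 1.99 in WT, and 7.54 in CD93-positive against 6.49 in CD93-negative cells. Itgae had 125 reads in KO against 7 in WT, and 24 in CD93-positive against 68 in CD93-negative cells, 2.81-fold lower in CD93-positive cells on the ratio scale and under the limit in log2. Of 10 measured genes in the KO and WT pair 3 were higher and 0 lower, Madcam1, Itgb2 and Selplg, against 16.6% higher and 12.7% lower among all measured genes, with Itgb2, the beta chain of LFA-1, at 33.2 in KO against 9.11 in WT. The median of the list was 0.61 there. In the CD93 pair 0 of 11 were past the limit, with a median of 0.19.

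Among genes that carry or end the receptor signal, Gnai2, the main inhibitory G protein of chemokine receptors, had an FPKM of 26.0 in KO against 21.1 in WT, and of 153 in CD93-positive against 123 in CD93-negative cells. Rgs1, which shortens chemokine receptor signals and is abundant in gut lymphocytes, was 1.76-fold lower in CD93-positive ILC3s (1.73 to 1.80), with 161 in CD93-positive against 283 in CD93-negative cells. Rgs2 was 1.60-fold lower (1.53 to 1.68). In the KO and WT pair Rgs1 had 358 in KO against 427 in WT, and Rgs2 had 165 in KO against 230 in WT. Past the limit were 1 of 21 genes higher, Arrb2, and 1 lower, Rgs18, in that pair. Rgs16 was lower in the CD93 pair (5 reads in CD93-positive against 64 in CD93-negative cells), and 0 of 21 were higher; the median of the list was 0.07 in each pair.

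Of the transcription factors known to act on such receptor genes, Klf2, an activator of S1pr1 in T cells, was 4.64-fold lower in CD93-positive ILC3s (2.76 to 8.20), with 18 reads in CD93-positive against 84 in CD93-negative cells. Lef1 (73 reads in CD93-positive against 296 in CD93-negative cells) and Bach2 (385 in CD93-positive against 948 in CD93-negative cells) were lower too, and Batf3 was higher (128 in CD93-positive against 23 in CD93-negative cells), making 3 of 17 lower and 1 higher, with a median of -0.11. Foxo1, which acts above Klf2 in T cells, had an FPKM of 23.6 in CD93-positive against 25 in CD93-negative cells. In the KO and WT pair Klf2 had 14.6 in KO against 19.2 in WT, 1.31-fold lower (1.19 to 1.45), and Foxo1 had 8.36 in KO against 6.91 in WT. Prdm1, which encodes the residency factor BLIMP-1, was higher in KO (360 reads in KO against 39 in WT), as was Rxrb, a partner of retinoic acid receptors (FPKM 1.46 in KO against 0.114 in WT), making 2 of 14 higher and 0 lower, with a median of 0.02. S1pr1 had the same direction as Klf2 in the CD93 pair and the opposite one in the KO and WT pair, where S1pr1 was not measured. Whether the 2 genes are linked in these cells was not tested.

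**Figure D5:**
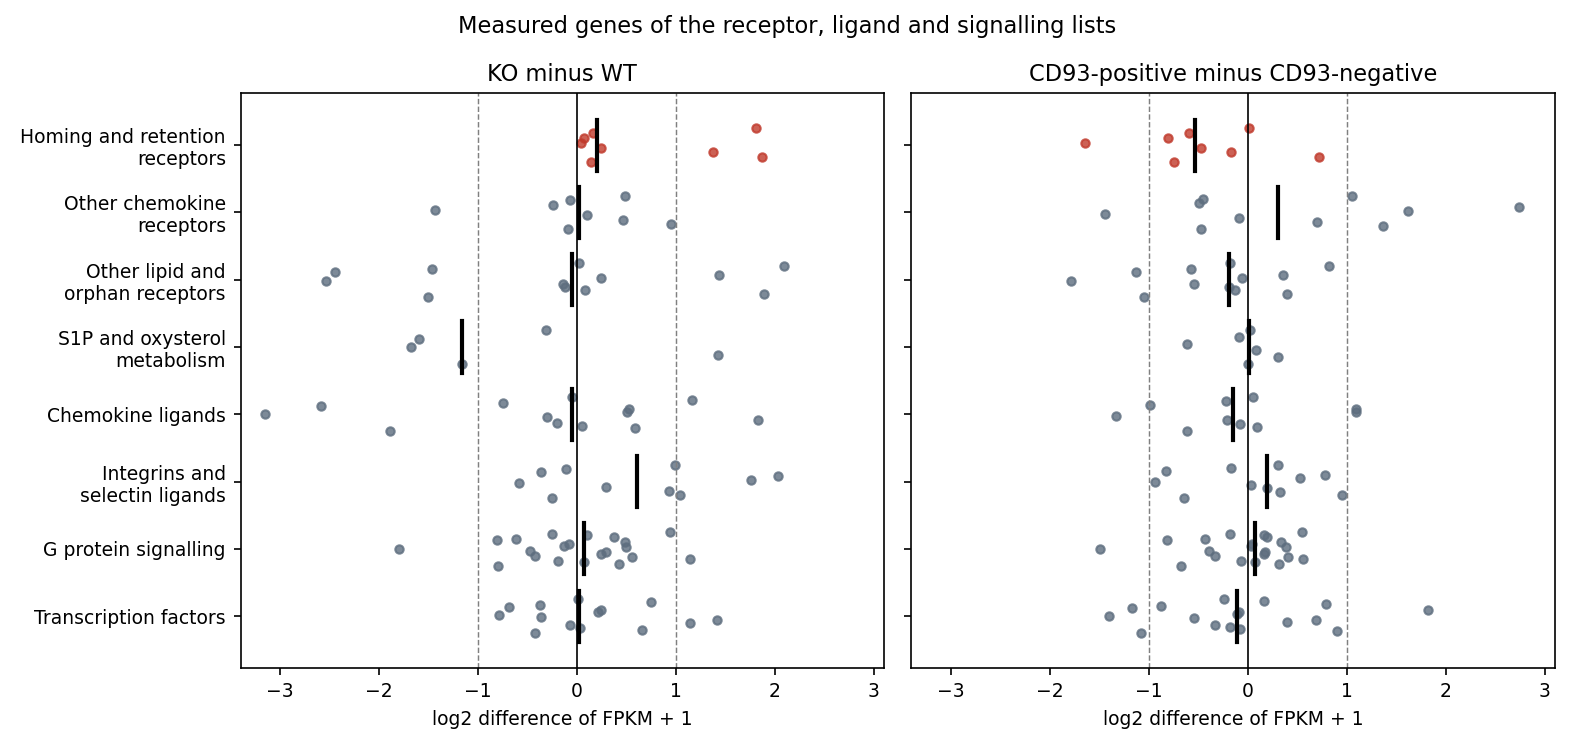
Log2 difference of FPKM + 1 of the measured genes of the receptor list (red) and of 7 related lists (grey), with black bars at each list's median and dashed lines at the 2-fold limit. The receptor genes have a median of 0.20 in the KO and WT pair and of -0.53 in the CD93 pair.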

How the data were processed

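RNA-seq was done on 4 libraries. The deposited values are FPKM, which the authors computed. Bowtie2, featureCounts, Subread, edgeR, DESeq2 and the mm10 build are named in the submitters' processing notes, without settings, gene annotation or strandedness. The per-library tables equal the joint ones in all rows.

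Reads were recovered as FPKM times GENCODE M21 union exon length in units of 1 step per library. They were whole, within 0.02 reads, for 92.1% (KO), 91.9% (WT), 98.1% (CD93-positive) and 98.2% (CD93-negative) of the values above 0 with a length, and for every value of the 9 genes. The recovery and the intervals were tested on simulated data. Levels were compared within a joint table only. Python 3.11.15, pandas 2.3.3 and scipy 1.17.1 were used.

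The members and lists were chosen with earlier results of these data known. Named genes are the members, up to 8 called genes per list and pair, and fixed homing genes. Pseudocounts (0.1, 5), FPKM minimums (none, 5), a 3-fold limit and 3 scalings were tried as alternatives. Some items are not reported here.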

Additional observations from a re-analysis of the deposited data

How the results depend on the processing

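No paired analysis was possible because each group holds 1 library. In the KO and WT pair 3 genes were called as reported. This count fell to 1 with a pseudocount of 5, which left Ccr8, and was 2 to 4 in the 7 other alternatives, each with 0 lower. In the CD93 pair 1 gene was called, and 2 with a pseudocount of 0.1, Ccr9 and S1pr1, while the 7 other alternatives gave 1. Over all genes, 2058 higher and 1569 lower calls in the KO and WT pair became 499 and 322 with the pseudocount of 5 and 920 and 636 with the 3-fold limit. In the CD93 pair, 252 higher and 196 lower calls became 109 and 60 with the pseudocount of 5, 73 and 37 with the 3-fold limit, and with the pseudocount of 0.1 7.74% of the measured genes were called, 49.9% of them higher. Only the scalings could change the sign of a difference. They raised the differences in the KO and WT pair, where all were positive, so the 0 lower calls there could not change. In the CD93 pair they lowered the differences. Only the positive ones of Gpr183 and Cd69 could thus change sign there, and that of Cd69 did. With 1 library per group the spread between animals is unknown, and S1pr1 and S1pr4 rest on at most 161 reads per library in the KO and WT pair.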

Other observations

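Some chemokine genes, among them ligands of these receptors, were measured too. The 13 measured in the KO and WT pair had a median difference of -0.05, with 2 higher and 3 lower, where 29.3% of all measured genes were past the limit and 40.8% of those with 100 to 1000 reads over the pair. The CCR4 ligand gene Ccl17 had 0 reads in KO against 106 in WT, the CCR6 ligand gene Ccl20 had 0 in KO against 186 in WT, and the CCR8 ligand gene Ccl8 had 0 in KO against 36 in WT. Ccl22 had 160 reads in KO against 0 in WT, and the CCR7 ligand gene Ccl21a had 29 in KO against 0 in WT. In the CD93 pair 2 of 10 chemokine genes were higher, Ccl17 (49 reads in CD93-positive against 20 in CD93-negative cells) and Ccl8 (11 in CD93-positive against 2 in CD93-negative cells), and Ccl22 was lower (195 in CD93-positive against 536 in CD93-negative cells). Among all measured genes of that pair, 2.49% were higher and 1.94% lower. The ratio of Ccl8 had a wide interval, 1.21 to 51.4.

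Of the 3 genes tabulated within 100 kb of Ccr7, 2 were past the limit in the CD93 pair, in the direction opposite to that of Ccr7, and Smarce1 was not. Igfbp4, an insulin-like growth factor binding protein gene, had an FPKM of 13.5 in CD93-positive against 1.61 in CD93-negative cells (699 reads in CD93-positive against 84 in CD93-negative cells), and Tns4, a tensin gene of focal adhesions, had 27.8 in CD93-positive against 12.2 in CD93-negative cells. In the KO and WT pair Igfbp4 had 1 read in KO against 166 in WT, and Tns4 had an FPKM of 24.4 in KO against 15.6 in WT. Within 100 kb of S1pr4 in the KO and WT pair, Ncln, which starts 3.7 kb away on the same strand, had an FPKM of 3.80 in KO against 1.28 in WT, with a log2 difference of 1.07. There Gna11, a G protein gene, had a difference of 0.98, under the limit. Another G protein gene, Gna15, had the opposite direction to S1pr4, with 0 reads in KO against 253 in WT, and an FPKM of 16.3 in CD93-positive against 14.4 in CD93-negative cells. These genes were singled out after their values were seen.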
